A study of Mus musculus with 6 samples.

Results

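The genes described here encode fibrillar collagens of types I, III and V (Col1a1, Col1a2, Col3a1, Col5a1, Col5a2 and Col5a3), the fibril-associated collagen XII (Col12a1) and the 3 main chains of collagen VI (Col6a1, Col6a2 and Col6a3). They were chosen by name, as the probe sets whose array annotation gives only 1 of these symbols, and each gene was represented by its probe set with the highest mean log2 signal over the 6 arrays. All 10 genes were on the array, among 18193 genes with a probe set of 1 symbol, and they had 22 probe sets. The samples were cultures of E0771, a mammary tumour cell line of C57BL/6 mice, in 2 groups of 3. Parental cells were not selected. HML2 cells are a second-generation population obtained by placing E0771 cells in the mammary fat pad of C57BL/6 mice and recovering cells from lung metastases. Cells of both groups were lysed in the dish after 3 days of culture in a medium that held 10% serum of fetal bovine origin. The labels call the cultures biological replicates and do not say how many animals the HML2 population came from. The p-values therefore set each difference against the variation between these cultures only. In bulk RNA, fewer cells that express a gene and less RNA per cell cannot be told apart.

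Fibrillar collagens are secreted as procollagens of 3 chains wound into a triple helix and, after cleavage of their ends, assemble into fibrils that give tissue its tensile strength. Collagen V sits inside collagen I and III fibrils and helps to start and limit their growth, and collagen XII lies on fibril surfaces. Collagen VI forms beaded filaments close to the cell surface from a unit in which 1 chain each of the products of Col6a1, Col6a2 and Col6a3 combine. Mesenchymal cells are the usual source of these proteins, and in tumours they make up much of the stroma.

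The bases before the start sites of the 4 genes that fell in HML2 cells, and of Col5a1, whose signal differed far less, are shown so that their sequences can be compared beside the values that follow. RefSeq's promoter table (build GRCm38.p6) matched 7 of the 10 members. It gave 2 windows for Col6a2, of which the first is shown. Each line gives the 250 bases before the start, 5′ to 3′ on the gene's strand, with capitals marking any match, on either strand, to 6 motifs: the TATA box as TATAAA, the box CCAAT, the GC box as GGGCGG, the Smad motif as CAGAC, the TEAD motif as CATTCC and the AP-1 motif as TGANTCA.
Col3a1, chr1:45311288-45311537, plus strand: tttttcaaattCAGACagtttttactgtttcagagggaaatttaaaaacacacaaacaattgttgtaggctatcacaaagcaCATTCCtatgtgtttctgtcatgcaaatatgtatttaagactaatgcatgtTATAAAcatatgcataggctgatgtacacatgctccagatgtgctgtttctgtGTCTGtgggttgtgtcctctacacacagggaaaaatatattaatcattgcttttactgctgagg
Col6a1, chr10:76726045-76726294, minus strand: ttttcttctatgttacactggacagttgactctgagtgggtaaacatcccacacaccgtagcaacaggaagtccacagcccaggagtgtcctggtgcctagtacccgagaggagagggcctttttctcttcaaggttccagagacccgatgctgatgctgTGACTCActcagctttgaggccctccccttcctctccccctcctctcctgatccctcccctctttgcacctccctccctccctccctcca
Col6a2, chr10:76623405-76623654, minus strand: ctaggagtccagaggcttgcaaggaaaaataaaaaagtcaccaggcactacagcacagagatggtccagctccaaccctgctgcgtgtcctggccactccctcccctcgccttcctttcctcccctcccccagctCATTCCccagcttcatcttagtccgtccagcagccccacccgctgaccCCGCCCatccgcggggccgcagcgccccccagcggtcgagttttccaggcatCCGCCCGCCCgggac
Col6a3, chr1:90843972-90844221, minus strand: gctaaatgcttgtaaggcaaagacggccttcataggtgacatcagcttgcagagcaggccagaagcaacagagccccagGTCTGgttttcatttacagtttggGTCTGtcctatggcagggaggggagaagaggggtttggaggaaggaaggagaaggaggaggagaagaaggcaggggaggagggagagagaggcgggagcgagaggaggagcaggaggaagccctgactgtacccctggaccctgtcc
Col5a1, chr2:27886175-27886424, plus strand: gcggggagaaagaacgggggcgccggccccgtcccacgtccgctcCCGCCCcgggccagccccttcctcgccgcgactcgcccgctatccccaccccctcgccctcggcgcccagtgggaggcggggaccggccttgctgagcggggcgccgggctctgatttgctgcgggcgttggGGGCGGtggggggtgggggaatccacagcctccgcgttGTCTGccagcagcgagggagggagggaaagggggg
The Col3a1 window held TATAAA at -117, CAGAC at -239 and -64, and CATTCC at -168, counted from the start. The Col6a3 window held CAGAC at -171 and -147, and the Col6a1 window held TGANTCA at -90. The first Col6a2 window held CATTCC at -115 and GGGCGG at -67, -15 and -11, where the last pair overlaps. The second Col6a2 window, not shown, held GGGCGG at -175 and CAGAC at -35. The Col5a1 window held GGGCGG at -205 and -73 and CAGAC at -35. No motif of the 6 was in the windows of all 4 genes that fell, with either Col6a2 window. Over 32851 windows of the same length, 12.4% held TATAAA, 33.8% CCAAT, 32.7% GGGCGG, 42.2% CAGAC, 12.6% CATTCC and 6.7% TGANTCA. A match describes these letters only.

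The deposited values are linear MAS5 signals that had been scaled to the same trimmed mean on each of the 6 arrays. A signal of 100 was reached by 39.7% to 41.6% of probe sets. Bacterial tryptophan control probe sets, which gauge background, read 1.97 to 36.2. The 3′ over 5′ signal ratio of the control genes, a measure of RNA integrity that bears on long messages such as these, was 0.799 to 0.803 in parental and 0.770 to 0.816 in HML2 cells for Gapdh (exact two-sided permutation test, p = 0.7, n = 3 per group). For Actb it was 1.41 to 1.53 and 1.36 to 1.39 (exact p = 0.1, the smallest that 3 against 3 arrays allow). The part of that lower Actb ratio in the results was not tested.

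Of the 10 collagen genes, 6 had a mean signal of at least 100 over the 6 arrays and were tested, and 4 of the 6 fell in HML2 cells (adjusted p below 0.05 in limma, with the Benjamini-Hochberg method over 9361 genes). Over all tested genes 14.9% were called lower and 12.3% higher. The 4 genes were Col3a1 and all 3 collagen VI genes, and their signals differed by 7.67-fold to 37.6-fold. None was called higher by limma, 0 were higher at an unadjusted p below 0.05, and all 6 differences were negative, with a median of -2.95 against -0.02 over all tested genes. Differences are HML2 minus parental on the log2(signal + 50) scale, which understates the change of genes with low signals. The 6 tested genes had a group mean above 100 in both groups, so none passed the filter through 1 group alone. Col5a2 and Col1a2 reached 100 in the parental mean only and failed the filter over all arrays, and Col1a1 and Col12a1 were below 100 in both groups.

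**Figure D1:**
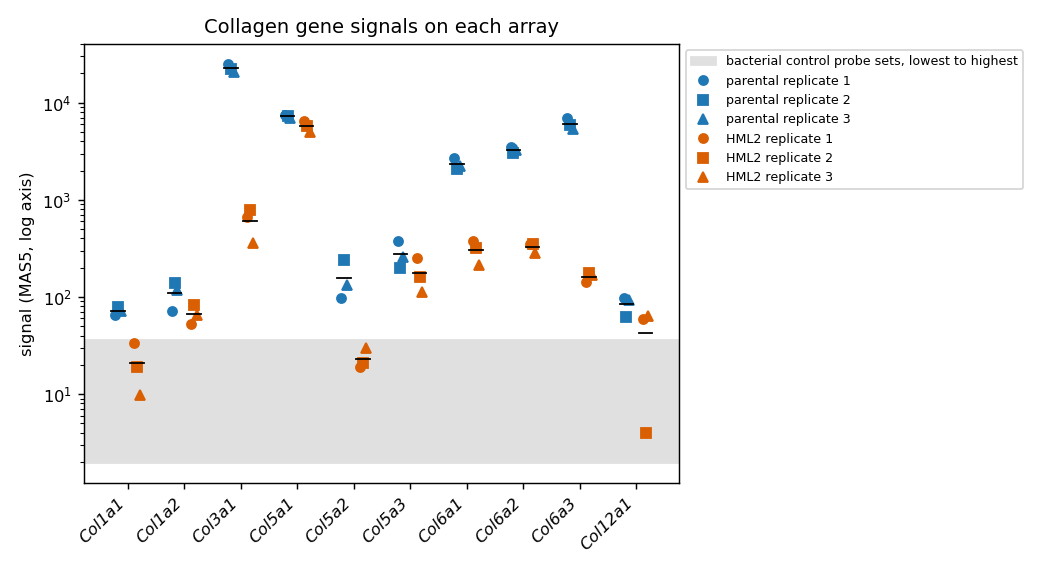
Signal of each collagen gene on each array (log axis), with parental cultures in blue and HML2 cultures in orange, symbols for replicate numbers, black lines for group means (n = 3) and a grey band for the range of bacterial control probe sets, 1.97 to 36.2. Col3a1, Col6a1, Col6a2 and Col6a3 are separated widely between the groups, Col5a1 is high in both, and Col1a1, Col1a2, Col5a2 and Col12a1 lie near or inside the band in HML2 cells.

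Col3a1 encodes the single chain of collagen III, which forms fine fibrils in extensible tissues and often mixed fibrils with collagen I. Its signal was 25093, 22244 and 20547 in parental replicates 1, 2 and 3 and 659, 785 and 363 in HML2 replicates 1, 2 and 3. The groups were far apart, and HML2 replicate 3 was the lowest of all arrays. The parental mean was 37.6 times the HML2 mean, and the log2 difference was -5.18 ± 0.24 (SE, limma adjusted p = 1.4e-05). No tested gene had a larger decrease on this scale, but 4 genes did with an offset of 16 in place of 50, and 15 by the ratio of the group means. The second Col3a1 probe set, 1427884_at, gave 3622, 2447 and 2684 in parental and 70.7, 39.7 and 24.5 in HML2 cultures. Its difference of -4.97 ± 0.22 was close to that of the first, and its lowest HML2 signal lay inside the range of the control probe sets. Over 17 alternative analyses the Col3a1 difference ranged from -5.40 to -4.88.

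Of the collagen V genes, Col5a1 and Col5a3 were tested, and both differed by less than Col3a1, while Col5a2 failed the signal filter. Col5a1 encodes the chain that is common to the usual forms of collagen V. Its brightest probe set, 1416740_at, read 7520.4, 7262 and 6887 in parental and 6481, 5707 and 5003 in HML2 cultures. All 3 HML2 arrays were below all 3 parental arrays, as were 23.8% of tested genes, but the parental mean was only 1.26 times the HML2 mean. The difference of -0.34 ± 0.12 (95% interval -0.61 to -0.07) did not pass the test (limma adjusted p = 0.066). In the fit that blocked on replicate number the same difference passed (adjusted p = 0.016), and without HML2 replicate 1 it was -0.43 (adjusted p = 0.011). Both other Col5a1 probe sets showed a larger difference. Probe set 1434479_at read 3044, 4124 and 3768 in parental and 1214, 2261 and 2084 in HML2 cultures, a difference of -0.99 ± 0.23 (limma over all probe sets, adjusted p = 0.014). That call was lost without parental replicate 2 (-0.90, adjusted p = 0.054) or parental replicate 3 (-0.97, adjusted p = 0.061). Probe set 1416741_at was dimmer, at 253, 197 and 149 against 80.0, 81.4 and 77.6, with a difference of -0.92 ± 0.20 (adjusted p = 0.010). With the mean of all 3 probe sets Col5a1 was called lower, at -0.75 (adjusted p = 0.0033). The size of the Col5a1 decrease thus depended on the probe set, while its sign did not.

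Col5a2 encodes the partner chain of Col5a1 in most collagen V and lies next to Col3a1 on chromosome 1, with 0 protein-coding genes between them in the RefSeq gene table. Its better probe set read 98.5, 239 and 132 in parental and 18.8, 21.0 and 29.6 in HML2 cultures. The HML2 signals all lay inside the range of the control probe sets, and parental replicate 2 was the highest. The mean over the 6 arrays, 89.7, was below the filter. When all 18193 genes were fitted without a filter, the difference was -1.44 ± 0.27 (limma adjusted p = 0.011), in a fit that called 6.82% of genes lower. The other Col5a2 probe set read 1.70 to 57.5 and its groups overlapped. Col5a3, a minor collagen V chain, read 373, 198 and 257 against 252, 161 and 112. Its groups overlapped, and its difference of -0.55 ± 0.28 (95% interval -1.18 to 0.09) did not pass the test (adjusted p = 0.18). Without HML2 replicate 1 it was -0.78 and passed (adjusted p = 0.034). HML2 replicate 1 was the highest HML2 array for Col5a3 and for the brightest Col5a1 probe set.

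The collagen I genes, whose products form the main fibrils of skin, tendon and bone, had low signals in both populations, and neither reached the filter. Col1a1 read 65.1, 78.4 and 72.1 in parental and 33.8, 18.8 and 9.83 in HML2 cultures. The groups did not overlap, as was so with HML2 lower for 16.6% of genes without the filter, and all HML2 values were within the range of the control probe sets. The unfiltered fit gave -0.80 ± 0.19 (limma adjusted p = 0.028), but the second Col1a1 probe set read 3.86 to 65.2 with overlapping groups, and its difference of -0.27 ± 0.26 did not pass (unfiltered fit of all probe sets, adjusted p = 0.66). Col1a2, the other collagen I chain, read 72.3, 138 and 119 against 52.9, 82.1 and 65.8. Its groups overlapped, and -0.43 ± 0.23 did not pass (adjusted p = 0.31). Its other probe sets had signals of 1.33 to 56.5. Without the filter 6 of the 10 collagen genes were called lower, the additional ones being Col1a1 and Col5a2.

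Col12a1, the gene of the fibril-associated member, had 4 probe sets that did not move together, and none reached the filter. The brightest read 96.9, 61.8 and 93.8 in parental and 59.6, 3.94 and 63.4 in HML2 cultures, with overlapping groups. Its difference was -0.61 ± 0.31 (unfiltered fit, limma adjusted p = 0.28), and HML2 replicate 2 lay far below the other arrays. Probe set 1434411_at read 33.9, 112 and 104 against 16.7, 6.22 and 4.49, a difference of -1.12 ± 0.27 (unfiltered fit of all probe sets, limma adjusted p = 0.043). Probe set 1445751_at went the other way, from 5.72, 1.08 and 1.78 to 12.9, 23.5 and 15.6, none above the range of the control probe sets (0.35 ± 0.11, adjusted p = 0.0998).

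The 3 collagen VI genes all fell. Col6a1 and Col6a2 encode the short chains of the unit, lie next to each other on chromosome 10 and were measured at 2686, 2068 and 2246 against 377, 322 and 213 for Col6a1. For Col6a2 the signals were 3533, 3035 and 3271 against 352, 351 and 284. In both genes the lowest parental array was several times the highest HML2 array. The differences were -2.77 ± 0.20 for Col6a1 (limma adjusted p = 6.8e-05) and -3.14 ± 0.14 for Col6a2 (adjusted p = 1.1e-05). A second Col6a2 probe set, 1426947_x_at, fell by less, from 901, 704 and 801 to 165, 111 and 107 (-2.27 ± 0.18, adjusted p = 9.5e-05 over all probe sets). Col6a3 encodes the long chain, which carries many more globular domains, and lies on chromosome 1. It read 7018, 5883 and 5352 in parental and 141, 177 and 168 in HML2 cultures. Its parental mean was 37.5 times its HML2 mean, and the difference was -4.85 ± 0.15 (adjusted p = 2.0e-06). The differences of Col6a1, Col6a2 and Col6a3 stayed between -5.09 and -2.57 and were called lower in each of 17 alternative analyses.

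**Figure D2:**
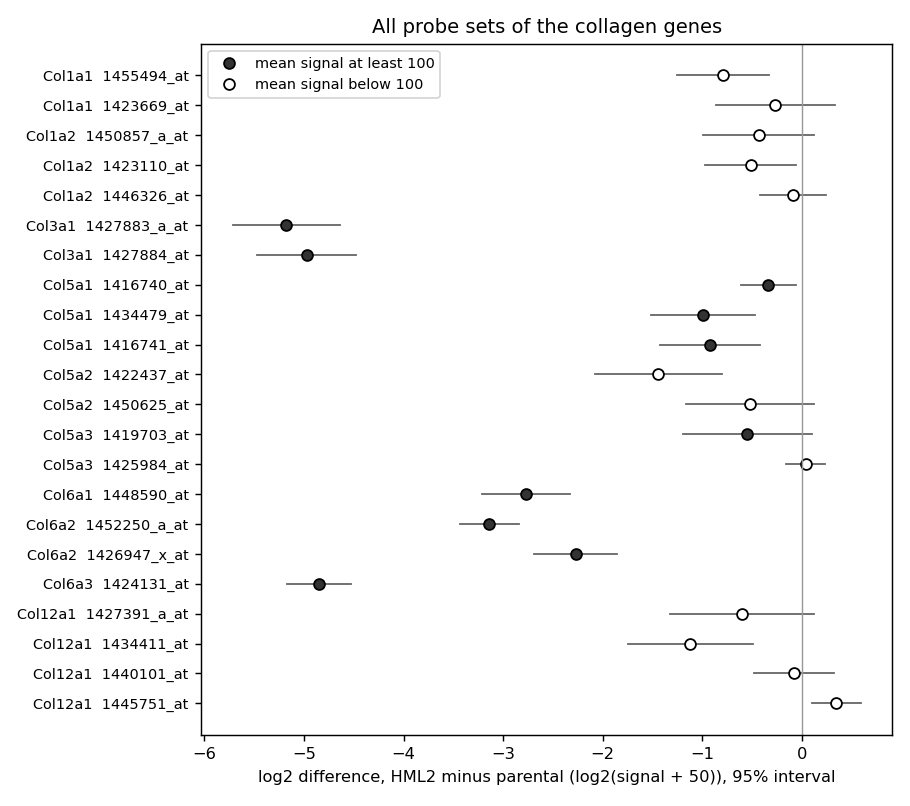
Log2 difference, HML2 minus parental, of each of the 22 probe sets of the collagen genes, from limma fitted to all probe sets without a signal filter, with 95% intervals; filled points have a mean signal of at least 100. Both Col3a1 probe sets lie near -5, the 4 collagen VI probe sets lie between -2.27 and -4.85, and the Col5a1 probe sets lie between -0.34 and -0.99.

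Counted by probe set, 10 of the 22 reached the filter, in the same 6 genes, and 8 of these 10 were called lower by limma over all 18359 probe sets, of which 13.5% were lower and 10.7% higher. None was called higher, and 0 were higher at an unadjusted p below 0.05. The 2 that did not pass were the brightest Col5a1 probe set and the Col5a3 probe set. Both passed in the blocked fit (adjusted p = 0.015 and 0.047), which called 10 of the 10 lower. That fit also called more of all tested genes, with 1831 lower and 1670 higher of 9361, against 1395 and 1155 without the block. Probe sets of a gene share its transcripts and are not replicates.

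The signals of the collagen VI chains were also compared as ratios within each array. The log2 ratio of Col6a1 to Col6a3 signals was -1.37, -1.49 and -1.23 on the parental arrays and 1.16, 0.71 and 0.27 on the HML2 arrays. The difference of the means was 2.08 ± 0.27 (SE), with no overlap of the groups. For Col6a2 to Col6a3 it was 1.71 ± 0.16, again without overlap, and 2.58 ± 0.24 with the second Col6a2 probe set. The ratio of Col6a1 to Col6a2 went from -0.49 ± 0.09 to -0.12 ± 0.22 (SD, n = 3), a difference of 0.37 ± 0.13. With the second Col6a2 probe set, an alternative chosen after the values were seen, it went the other way, by -0.50 ± 0.14, so the direction for this pair depends on the probe set. Each of these ratios had an exact two-sided permutation p = 0.1, the smallest that 3 against 3 arrays allow, and 0.14 after Benjamini-Hochberg adjustment over 7 pairs for the brightest probe sets, so none passed. The ratio of Col5a1 to Col5a3 differed by 0.21 ± 0.26, with overlapping groups (exact p = 0.5). The other pairs included a gene below the signal filter and are not interpreted. Only changes of a ratio are meaningful here, since probe sets of different genes differ in brightness at the same level of RNA.

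**Figure D3:**
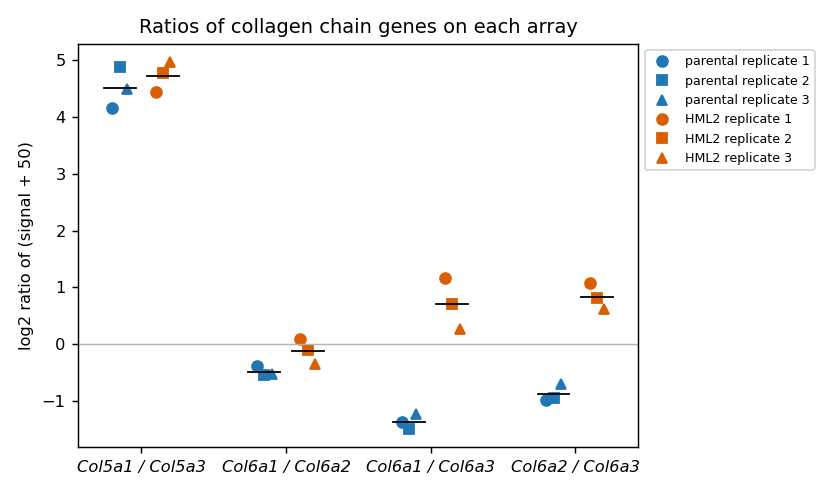
Log2 ratio of (signal + 50) for pairs of collagen genes that both passed the signal filter, on each parental (blue) and HML2 (orange) array, with black lines for group means (n = 3). The ratios to Col6a3 lie below 0 in parental and above 0 in HML2 cultures, whereas those of Col5a1 to Col5a3 overlap.

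Other collagen genes and their partners were taken from lists drawn up from general knowledge. The counts for these lists stand beside 14.9% lower and 12.3% higher over all tested genes. Among 7 further fibrillar and type VI genes on the array, Col24a1, a fibrillar collagen gene, alone reached the filter. It read 927, 712 and 878 in parental and 256, 129 and 127 in HML2 cultures, and fell by 2.05 ± 0.24 (limma adjusted p = 6.8e-04). Of 6 network, fibril-associated and transmembrane collagen genes tested, 3 were lower, namely Col16a1 (-0.89), Col4a1 (-0.78) and Col4a2 (-0.63). None of those 6 was called higher, and 0 were higher at an unadjusted p below 0.05.

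Genes for the folding, hydroxylation and crosslinking of collagen had 11 lower of 15 tested by limma and 0 higher (0 also at an unadjusted p below 0.05), with a median of -0.58. Loxl3, a lysyl oxidase-like enzyme of crosslinking, read 1509, 1209 and 1404 in parental and 142, 121 and 149 in HML2 cultures (-2.92 ± 0.15, adjusted p = 2.1e-05). P3h4, a member of the prolyl 3-hydroxylase family, went from 2495 ± 74.1 to 819.6 ± 12.7 (SD, n = 3), a difference of -1.55 ± 0.11 (adjusted p = 7.3e-05). The number of lower genes fell from 11 to 7 when parental replicate 1, 2 or 3 or HML2 replicate 3 was left out. Those fits also called fewer of all tested genes lower, 795 to 1076 against 1395. Without the signal filter 7 of 22 listed genes were lower, in a fit that called 6.82% of all genes lower.

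Of 8 tested genes for procollagen cleavage and fibril assembly, 5 were lower and 0 higher (limma; 0 higher also at an unadjusted p below 0.05). Sparc, which encodes a collagen-binding matricellular protein, read 19787, 16472 and 16210 against 5868, 3898 and 2705 (-2.12 ± 0.24, adjusted p = 6.7e-04). Bgn, the gene of the small proteoglycan biglycan, read 142, 232 and 163 against 7.24, 17.7 and 47.0 (-1.65 ± 0.26, adjusted p = 0.0029). Bgn and Thbs2, another gene of the 5, passed the signal filter through the parental group alone, and 3 of this list were lower with the filter at a mean signal of 200. Pcolce, whose product enhances the cleavage of procollagen, also fell (-0.98, adjusted p = 0.0011), whereas Bmp1, the gene of the procollagen C-proteinase itself, differed by -0.05 and was not called (adjusted p = 0.84).

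Of 6 tested receptor genes, 2 rose and 2 fell. The related genes Antxr1 and Antxr2, which encode cell-surface proteins known to bind collagen VI among other ligands, had opposite differences. Antxr1 read 513, 378 and 408 in parental and 3.07, 9.76 and 1.71 in HML2 cultures, where no value lay above the range of the control probe sets (-3.13 ± 0.19, limma adjusted p = 3.6e-05). It passed the filter through the parental group alone. A second Antxr1 probe set was below the filter, at 73.5, 88.8 and 82.2 against 64.0, 40.2 and 57.8, and its difference of -0.34 ± 0.21 was not called. Antxr2, with 1 probe set, read 721, 602 and 510 in parental and 3957, 2278 and 2579 in HML2 cultures (2.15 ± 0.22, adjusted p = 3.9e-04). The discoidin receptor gene Ddr2 (-0.50, adjusted p = 0.026) was lower and the integrin gene Itgb1 (0.44, adjusted p = 0.034) higher. With any 1 array but HML2 replicate 1 left out, 1 receptor gene was lower in place of 2. The higher genes went from 2 to 1 on leaving out any parental array or HML2 replicate 3.

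Among 5 genes for collagen degradation, 2 were higher and 1 lower. The gelatinase gene Mmp2 read 768, 757 and 739 against 192, 185 and 185 (-1.76 ± 0.13, limma adjusted p = 9.1e-05). The gelatinase gene Mmp9 read 98.4, 66.1 and 63.0 against 364, 291 and 260.0 (1.50 ± 0.20, adjusted p = 0.0013), and the collagenase gene Mmp1a had a difference of 1.34 (adjusted p = 0.0016). The collagenase gene Mmp13 read 169, 43 and 39 against 1191, 142 and 294, with overlapping groups. Its difference of 1.83 was not called (limma adjusted p = 0.063). Mmp9, Mmp1a and Mmp13 passed the filter through the HML2 group alone. At an unadjusted p below 0.05, 3 genes of the list were higher. The blocked fit called 3 higher, beside 1670 of all 9361 tested genes. With a filter at a mean signal of 200, 0 degradation genes were called higher (limma).

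Of 13 transcription factor genes with a known link to collagen promoters, 1 was higher (2 in the blocked fit) and 2 were lower. Such counts do not set the list apart from all tested genes, of which 14.9% were lower and 12.3% higher. Prrx1, a homeobox factor of mesenchymal cells, read 6809, 5534 and 6231 against 4391, 2030.1 and 2215 (-1.17 ± 0.26, limma adjusted p = 0.012; 0.051 without parental replicate 3). Nfyb, a subunit of the factor that binds CCAAT, rose by 0.66 ± 0.14 (adjusted p = 0.0098), and Smad3, a mediator of TGF-beta signals, fell by 0.57 (adjusted p = 0.022). Leaving out parental replicate 1, HML2 replicate 2 or HML2 replicate 3 left 1 lower gene, and leaving out parental replicate 3 left 0.

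**Figure D4:**
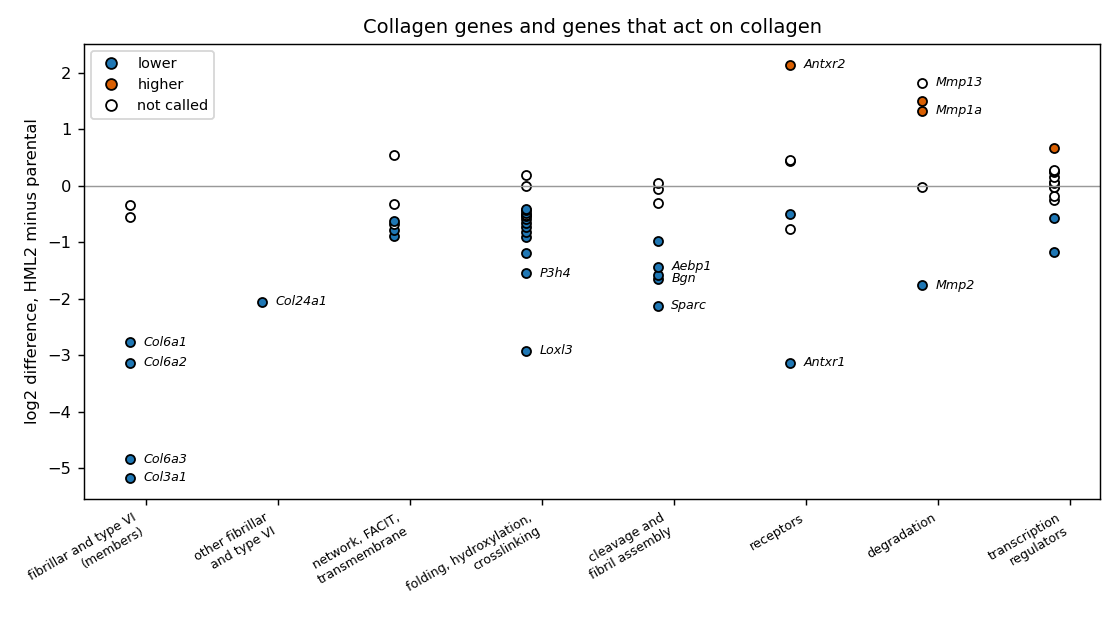
Log2 difference, HML2 minus parental, of the tested genes in each list, with blue for lower, orange for higher and white for genes not called at an adjusted p below 0.05 (limma); some genes beyond 1.3 in either direction are named. Col3a1 and Col6a3 lie lowest, Loxl3 and Antxr1 lie near -3, and Antxr2 lies above 2.

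Of 10 markers of fibroblasts, 2 were tested and 1, Pdgfra, was lower (-1.09 ± 0.20, limma adjusted p = 0.0052). With the mean of all its probe sets Pdgfra was not called (-0.45, adjusted p = 0.054). Pdgfrb had a difference of -1.18 ± 0.39 (adjusted p = 0.053; 0.0020 in the blocked fit and 0.0014 without HML2 replicate 1). The summed signal of these markers was 2476 to 4878 in parental and 1249 to 2289 in HML2 cultures. Below the filter, Dpt had means of 150.4 in parental and 22.4 in HML2 cultures, Pdpn 46.5 and 76.6, and Pi16 6.58 and 35.4. The fibroblast genes Dcn, Lum, Thy1, Cd34 and Fap had group means of 5.61 to 29.4, within the range of the control probe sets. Of 7 smooth muscle and pericyte markers both tested genes, Acta2 and Rgs5, were lower (-4.88 ± 0.41 and -1.96 ± 0.20), the latter having passed the filter through the parental group alone, with summed signals of 8668 to 21024 against 450.2 to 1047. The Acta2 value came from a probe set of the _s type. With the mean of all its probe sets the Acta2 difference was -2.04 (limma adjusted p = 0.0010). When probe sets of the _x and _s types were left out, Acta2 had none that reached the filter. The defining smooth muscle genes Myh11 and Tagln had group means of 6.63 to 10.8. The part of the Pdgfra, Acta2 and Rgs5 decreases in the collagen result was not tested.

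Markers of leukocytes, endothelium and lung epithelium were low. The leukocyte gene Ptprc had means of 5.24 and 8.71, and the summed signal of 7 leukocyte markers was 416 to 466 in parental and 257 to 466 in HML2 cultures. Of that list Lyz2, which passed the filter through the parental group alone, was lower (-0.91), while the difference of Csf1r, -0.23, missed the threshold (adjusted p = 0.55). None of 6 endothelial markers reached the filter, with sums of 107 to 189 and 138 to 183. Of the lung epithelial markers Sftpb alone was tested (0.34, adjusted p = 0.26), with means of 83.2 and 120.3, and the list's sums were 136 to 242 and 164 to 297. Of 8 mammary epithelial markers Krt8 (1095 ± 60.3 against 4175 ± 649.8, 1.87 ± 0.14) was higher in HML2 cells and for Epcam, at -0.45, the test was not passed (adjusted p = 0.13; -1.82 and 0.0013 without probe sets of the _x and _s types). The sums of that list were 1327 to 1440.0 and 3844 to 5132. Krt18 had means of 34.2 and 86.0 and Krt5 of 26.1 and 58.5, both below the filter. Neither was called in the unfiltered limma fit (adjusted p = 0.070 and 0.11). Krt7 had means of 37.1 and 6.23. The epithelial genes Cdh1, Krt14 and Krt19 had group means of 4.56 to 22.9 and thus lay within the range of the control probe sets, in cells labelled as a mammary tumour line.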

How the data were processed

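Each culture gave 15 ug of total RNA for 1 Affymetrix mouse array, per the labels' protocols. The authors deposited MAS5 signals, which are intensities on a linear scale. The submitters' processing notes name MAS5, whose version is not given in the sources used here. Scaling to a common trimmed mean removes any difference in total messenger RNA. The array annotation supplied symbols, updated through a RefSeq table of GRCm38.p6; control probe sets were left out.

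Signals were converted to log2(signal + 50), genes with a mean signal of at least 100 were kept, and HML2 was set against parental by limma (version 3.58.1, R 4.3.3; lmFit, eBayes with intensity trend), adjusted by Benjamini-Hochberg over all tested genes or probe sets and called at an adjusted p below 0.05. The code was tested on simulated data. Arrays with the same replicate number deviated together (r = 0.45, 0.34 and 0.24 across genes), so the number entered as a block in an alternative; parental replicate 2 and HML2 replicate 3 also had r = 0.24. The labels do not say what the number stands for.

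The members, lists, motifs and tests were chosen with earlier results of these data known. Named were all members, up to 2 called genes with the largest difference per list (filled by the brightest) or the 2 brightest of each marker list, and the 5 genes with the profile nearest to Col3a1. Further genes were added with their values known, for small counts and for members near background: Col4a2, Pcolce, Bmp1, Ddr2, Itgb1, Mmp1a, Smad3, Dcn, Lum, Thy1, Cd34, Fap, Myh11, Tagln, Ptprc, Cdh1, Krt14, Krt19, Krt5, Krt7, Krt18, Dpt, Pdpn, Pi16 and Thbs2. Mmp13 was added in the same way. Alternatives varied the offset, filter, normalization, weights, variance model, probe set and arrays.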

Additional observations from a re-analysis of the deposited data

How the results depend on the processing

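The number of arrays limits the precision, and signals near the bacterial controls cannot be ordered. Col3a1, Col6a1, Col6a2 and Col6a3 were called lower under all 17 alternatives. Col5a1 was negative in all and passed the test in 5, and Col5a3 in 2. The members called lower numbered 4 to 6, and 4 to 6 when single arrays were left out. All 6 tested members were lower with array weights and without HML2 replicate 1, fits that also called more of all tested genes. Without HML2 replicate 1, 1845 of all 9361 tested genes were lower and 1577 higher. Probe sets called lower numbered 7 to 10 when single arrays were left out. With array weights 2631 genes were lower and 2422 higher, against 1395 and 1155. Leaving out single arrays gave 795 to 1845 lower and 590 to 1577 higher genes, the fewest in each direction without parental replicate 3, and 715 higher genes without HML2 replicate 3. The Csf1r difference was -0.23 on all arrays and ranged from -0.40 to 0.031 when single arrays were left out, with the change of sign without HML2 replicate 3; the cause was not tested. With the replicate number as a block 5 of 6 tested members were lower, beside 1831 of all 9361 tested genes. Single calls in the blocked fit were followed for the members, the genes named by rule and the 5 nearest to Col3a1. Among these the block changed only the calls of Col5a1, Pdgfrb and the brightest Col5a3 probe set, given in the report. The genes added with their values known were not followed by name. The blocked fit called 13 of 15 genes for folding, hydroxylation and crosslinking lower. It also called lower 4 of 6 network, fibril-associated and transmembrane collagen genes and 3 of 6 receptor genes. The chain ratios with the second Col6a2 probe set and the rank of Col3a1 on other scales were added after seeing the data.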

Other observations

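The tested genes whose values over the 6 arrays, each relative to its parental mean, lay nearest to those of Col3a1 were Scara5 (root mean square distance 0.32 on the log2 scale), Col6a3 (0.40), Angpt1 (0.46), Stox2 (0.48) and Abi3bp (0.55). Of these only Col6a3 is a collagen gene. Scara5, Angpt1, Stox2 and Abi3bp passed the signal filter through the parental group alone, with HML2 means of 51.8, 13.9, 39.2 and 3.33, so their distances depend on the offset. The Abi3bp difference, for example, was -4.63 with an offset of 50, -6.07 with 16 and -3.73 with 100. Col6a3 differed from Col3a1 in its spread: the SD of its log2 signal over the HML2 arrays was 0.13, against 0.53 for Col3a1.

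Chromosome 1, which carries Col3a1, Col5a2 and Col6a3, had 34.7% of its 521 tested genes lower in HML2 cells, against 14.9% over all tested genes, and its median difference was -0.32. Of the 10 tested genes flanking Col3a1, 5 on each side in chromosome order, 4 were lower and 1 higher, with a median of -0.11. Of the 10 flanking Col6a3 in the same way, 4 were lower and 1 higher, with a median of -0.23. Chromosome 10, which carries Col6a1 and Col6a2, had 10.2% of its 481 tested genes lower. The 10 tested genes flanking Col6a1 had a median of 0.11, and the only one called was Col6a2. The part of chromosomal position in the collagen result was not tested.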
